A study of Homo sapiens with 8 samples.

Results

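The 10 human tubulin genes TUBA1A, TUBA1B, TUBA1C, TUBB, TUBB2A, TUBB2B, TUBB3, TUBB4A, TUBB4B and TUBB6 were followed across pluripotent cells and the germ layers made from them. They were chosen by name: 22 assembled transcripts were listed under these symbols, and the 20 that carry a gene name in the assembly were counted, with 38415 reads in all. The table holds 29937 genes and loci, of which 10847 passed the filter on low counts, all 10 tubulin genes included.

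The 8 libraries were long reads of polyadenylated RNA from H1, an established line of human embryonic stem cells, so that 1 line stands behind every value. There were 2 repeats of each of 4 groups. Undifferentiated cells (hPSC) were kept in mTeSR1 medium. The endoderm group received Activin A at 100 ng/ml together with WNT3A, and the mesoderm group VEGF and BMP4, both at 100 ng/ml, and bFGF at 10 ng/ml, with Activin A at 100 ng/ml in the opening 24 hours. The ectoderm group received A83-01, PNU-74654 and Dorsomorphin, each at 2 µM, which block the TGF-beta, WNT and BMP pathways. All 3 layers were harvested after 5 days in layer medium. The labels do not say whether the repeats were separate cultures, so p-values measure the spread between these libraries, which may be technical.

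Tubulin is the building block of microtubules. An alpha and a beta subunit pair into a dimer, dimers join head to tail into protofilaments, and vertebrates encode each subunit in several genes, called isotypes. The proteins are nearly alike in their folded body and differ mostly in a short, acidic tail at the carboxyl end, which lies on the outside of the microtubule and carries added glutamates, glycines and, on alpha tubulin, a removable tyrosine. TUBB3 is widely used as a stain for neurons, TUBB2A, TUBB2B, TUBB4A and TUBA1A are abundant in brain, TUBB4B is found in cilia, and TUBA1B, TUBB and TUBB6 are made in many tissues. When free tubulin is in excess, the messages of tubulin genes are destroyed on the ribosome after the factor TTC5 recognizes the first residues of the new chain.

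Coding sequences were taken from GENCODE 29 on GRCh38, for the reference transcript that each assembled main transcript matches. The last 60 coding bases before the stop codon of the main transcripts of the 7 beta genes are shown because they encode the part by which isotypes differ. Codons for glutamate (GAA and GAG, in frame) are in capitals.
TUBB: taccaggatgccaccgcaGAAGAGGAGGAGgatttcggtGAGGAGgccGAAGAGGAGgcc
TUBB2A: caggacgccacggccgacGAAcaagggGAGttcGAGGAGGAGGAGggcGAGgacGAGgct
TUBB2B: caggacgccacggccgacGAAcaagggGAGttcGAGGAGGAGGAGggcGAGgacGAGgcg
TUBB3: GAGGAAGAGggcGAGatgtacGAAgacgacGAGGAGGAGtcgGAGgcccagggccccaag
TUBB4A: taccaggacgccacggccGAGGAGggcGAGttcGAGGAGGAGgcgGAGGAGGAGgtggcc
TUBB4B: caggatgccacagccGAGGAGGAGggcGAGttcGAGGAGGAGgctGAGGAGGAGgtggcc
TUBB6: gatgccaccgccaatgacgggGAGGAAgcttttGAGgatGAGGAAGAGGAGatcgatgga

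From 7 to 10 of the 20 codons shown encode glutamate, the fewest in TUBB6 and the most in TUBB4B. TUBB2A and TUBB2B have the same tail apart from the last base, gct against gcg, both alanine codons. TUBB3 ends in a lysine codon (aag).

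Whole coding regions were compared as well. TUBB2A and TUBB2B are identical in 98.1% of 1338 bases, with 25 bases differing, and TUBA1A and TUBA1B in 97.2% of 1356 bases, with 38 differing. TUBA1C is 97.3% identical to TUBA1B and 96.3% to TUBA1A. The other pairs of beta genes are 81.7% to 90.3% identical. How reads that could fit more than 1 of these copies were assigned is not given in the sources used here, so the division of reads among the alpha genes and between TUBB2A and TUBB2B is uncertain to that degree.

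The start of the coding region is shown as well because the residues that TTC5 recognizes are encoded there. The first 4 codons are in capitals. The bases shown for TUBA1A are the same in TUBA1B and TUBA1C.
TUBA1A: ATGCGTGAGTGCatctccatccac
TUBB: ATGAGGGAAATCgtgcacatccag
TUBB2A: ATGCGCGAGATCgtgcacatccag
TUBB2B: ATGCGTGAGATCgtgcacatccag
TUBB3: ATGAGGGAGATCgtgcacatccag

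The main transcripts lie on GRCh38 at chr12:49184771-49189080 on the minus strand (TUBA1A), chr12:49127777-49131395 on the minus strand (TUBA1B), chr12:49265081-49274600 on the plus strand (TUBA1C), chr6:30720348-30725422 on the plus strand (TUBB), chr6:3153666-3157544 on the minus strand (TUBB2A), chr6:3224258-3227653 on the minus strand (TUBB2B), chr16:89923339-89936097 on the plus strand (TUBB3), chr19:6494315-6502309 on the minus strand (TUBB4A), chr9:137241287-137243707 on the plus strand (TUBB4B) and chr18:12308232-12326616 on the plus strand (TUBB6). Each has 4 exons. The 3 alpha genes are neighbours on chromosome 12, and TUBB2A and TUBB2B are neighbours on chromosome 6.

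The libraries held from 503840 to 1180888 reads, the ectoderm libraries being the deepest. Their reads differed in the length of the transcripts they came from, whose mean was 4406 and 4650 nt for the ectoderm libraries. The mean was 3073 and 2975 nt for those of endoderm, the shortest, and hPSC (3298 and 3114 nt) and mesoderm (3765 and 3840 nt) lay between them. Because the main tubulin transcripts are short, from 1563 to 2824 nt, counts of tubulin genes are set below against genes of the same length as well as against all genes. Markers of the groups were checked first. LHX5 and PAX6, factors of neural progenitors, had 235 and 156 reads (LHX5) and 170 and 79 reads (PAX6) in the ectoderm libraries and none in hPSC. Of 5 neural progenitor markers tested with a trend on transcript length removed, 3 were higher in ectoderm than in hPSC and 1, NES, was lower. In endoderm 2 of them were higher, PAX6 with 6 and 5 reads and OTX2 with 241 and 238. OTX2 had 181 and 130 reads in ectoderm and was not called there. CER1, an endoderm factor, had 2155 reads in endoderm and none elsewhere. Of 5 mesoderm markers 3 rose in mesoderm, HAND1 with 263 and 274 reads, BMP4 with 165 and 125 and TBX3 with 132 and 180, while KDR fell to 1 read in each library and MIXL1 had none. With a trend on transcript length removed, 4 of the 5 (MIXL1, HAND1, BMP4 and TBX3) were higher in endoderm than in hPSC as well. Then 5 of 8 pluripotency markers were lower in endoderm, 6 in ectoderm and 8 in mesoderm, and NANOG and TDGF1 were not called in endoderm. In mesoderm 12 of 12 tested genes of a list of amnion and trophoblast markers rose, among them GABRP with 2269 and 2355 reads. Summed, that list took 14590 and 16200 CPM in mesoderm, where CPM is the read count scaled so that every library has the same total. It took 6295 and 6969 CPM in endoderm, 310.2 to 429 CPM in ectoderm and 1023 and 1238 CPM in hPSC. In the endoderm libraries 6 and 7 of its 13 genes had no read. With the trend on length removed, 4 of 12 were higher there (ISL1, GATA3, KRT8 and KRT18) and 3 lower (GABRP, TFAP2C and KRT7). The part of this list in the tubulin values was not tested.

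Endoderm carried the most tubulin message and ectoderm the least. The 10 genes together took 1.29% and 1.42% of all reads in the endoderm libraries, 0.715% and 0.933% in hPSC, 0.486% and 0.600% in mesoderm and 0.413% and 0.325% in ectoderm. No library overlapped with one of another group. Overlap of libraries is given here and below as a description only. The share of all genes whose groups do not overlap was not counted. In bulk libraries fewer cells that make a message and less message per cell cannot be told apart. Levels below are in CPM, and 1 count is 1 long read, not divided by transcript length.

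**Figure D1:**
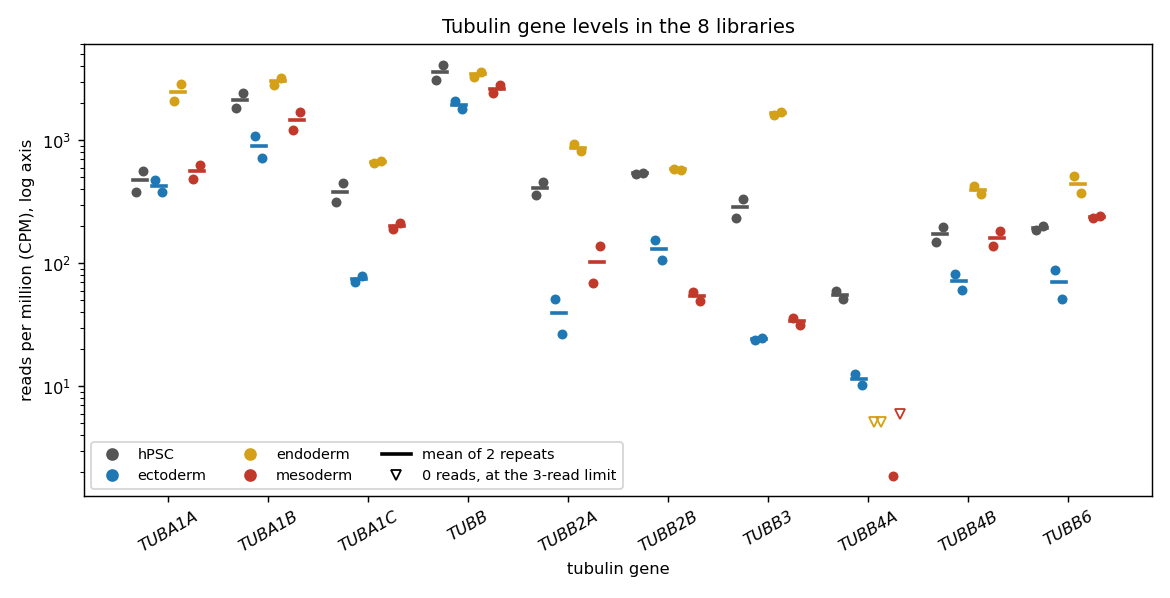
Level of each tubulin gene in the 8 libraries, in CPM on a log axis; points are libraries, short bars the mean of 2 repeats, and open triangles libraries with 0 reads, drawn at the level of 3 reads. TUBB3 stood at 1617 and 1687 CPM in endoderm and at 23.7 to 35.8 CPM in ectoderm and mesoderm, and TUBB4A had reads mainly in hPSC and ectoderm.

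Among the alpha genes, TUBA1A set endoderm apart. TUBA1A, the alpha isotype most abundant in young neurons, was at 2075 and 2852 CPM in endoderm. In the other 6 libraries it lay between 379 and 629 CPM, with hPSC at 383 and 559, ectoderm at 478 and 379, and mesoderm at 488 and 629. The hPSC libraries overlapped with those of ectoderm and of mesoderm, and no group overlapped with endoderm. The log2 fold change in endoderm against hPSC was 2.69 ± 0.37 (SE, n = 2 against 2), with an adjusted p of 9.00e-05 in edgeR's quasi-likelihood test with Benjamini-Hochberg adjustment, which gives all adjusted p-values of fold changes below. In ectoderm TUBA1A differed from hPSC by -0.60 ± 0.35 (adjusted p = 0.174) and in mesoderm by -0.03 ± 0.36 (adjusted p = 0.963). The mesoderm value changed sign with library totals alone as the scale (0.26) and the ectoderm value once a trend on transcript length was removed (0.37). Without hPSC repeat 1 the ectoderm difference was called, at -0.96 (adjusted p = 0.00291).

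TUBA1B, the widely expressed alpha isotype, ranked endoderm, hPSC, mesoderm, ectoderm by its mean. It was at 2801 and 3211 CPM in endoderm, 1814 and 2416 in hPSC, 1205 and 1707 in mesoderm and 1080.5 and 712 in ectoderm, and no 2 groups overlapped. Only the ectoderm value was called against hPSC, at -1.69 ± 0.37 (adjusted p = 0.00171). The endoderm difference was 0.81 ± 0.36 (adjusted p = 0.107) and the mesoderm difference -0.81 ± 0.36 (adjusted p = 0.0968). The endoderm difference was called without hPSC repeat 2, at 1.23 (adjusted p = 0.00120), and without a filter on low counts (adjusted p = 0.0262). With the trend on length removed, the ectoderm call was lost, at -0.73 (adjusted p = 0.102).

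TUBA1C differed from hPSC in all 3 layers. It was at 654 and 677 CPM in endoderm, 318 and 448 in hPSC, 188 and 212 in mesoderm, and 70.3 and 78.6 in ectoderm, again with no overlap between groups. TUBA1C rose in endoderm by 1.1 ± 0.31 (adjusted p = 0.0170) and fell in mesoderm, at -1.2 ± 0.32 (adjusted p = 0.00954), and in ectoderm, at -2.82 ± 0.34 (adjusted p = 1.92e-05). The endoderm call was lost without endoderm repeat 2 (adjusted p = 0.0664), and the mesoderm call without either mesoderm library (adjusted p = 0.0935 and 0.0638).

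TUBB, the most widely made beta isotype, had the narrowest range of group means among the beta genes, as a ratio. It was at 3109.9 and 4122 CPM in hPSC, 3282 and 3596 in endoderm, 2438 and 2810.4 in mesoderm, and 2082 and 1803 in ectoderm. Endoderm and hPSC overlapped, and the other groups did not. The ectoderm difference was -1.35 ± 0.35 (adjusted p = 0.00529), and it was no longer called without ectoderm repeat 2 (adjusted p = 0.0704). Mesoderm and endoderm differed from hPSC by -0.73 ± 0.35 (adjusted p = 0.115) and 0.23 ± 0.35 (adjusted p = 0.661), and the endoderm value changed sign on the scale of library totals (-0.09).

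TUBB3, the neuronal beta isotype, had the widest range that rests on reads in every group. Endoderm held 947 and 989 reads (1617 and 1687 CPM), hPSC 122 and 188 (235 and 334 CPM), mesoderm 19 and 16 (35.8 and 31.8 CPM) and ectoderm 28 and 24 (23.7 and 24.8 CPM). Both endoderm libraries lay above both hPSC libraries, and both of those above all libraries of the other layers. TUBB3 rose in endoderm by 2.84 ± 0.34 (adjusted p = 2.20e-05) and fell in ectoderm, at -4.00 ± 0.38 (adjusted p = 1.92e-06), and in mesoderm, at -3.34 ± 0.39 (adjusted p = 1.23e-05). Ectoderm and mesoderm differed from each other by -0.66 ± 0.42 (adjusted p = 0.236).

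Genes that mark neurons were followed beside TUBB3. Of a list of 15 neuron markers, 12 were found and 4 passed the filter, and the summed level of the list was 66.6 and 78.5 CPM in endoderm, 171 and 160 in hPSC, 215 and 181 in ectoderm and 33.9 and 43.7 in mesoderm. Divided by the TMM factors of the fit, the sums were 166.9 and 138.7 in ectoderm and 162.3 and 191.9 in hPSC, so that these groups overlapped. In endoderm 1 of the 4 rose (STMN2) and 1 fell (NEFL), in ectoderm 1 rose (SYT1) and 2 fell (GAP43 and NEFL), and in mesoderm 2 fell (GAP43 and NEFL). Of all genes, 13.4% rose and 13.7% fell in endoderm, 23.8% and 24.8% in ectoderm, and 16.9% and 18.2% in mesoderm. With a trend on transcript length removed, GAP43 was lower in endoderm too, and the other calls stood. In endoderm the neuronal genes DCX and NEUROG2 had no read, and ELAVL3 and SNAP25 had 1 each. Over all 8 libraries DCX had only 6 reads, NEUROG2 9, SNAP25 3 and ELAVL3 1, too few to set the groups apart. NEFL, a neurofilament, was lower in endoderm than in hPSC at -1.42 ± 0.40 (adjusted p = 0.0170). STMN2, a microtubule destabilizer of growing axons, had 33 reads in endoderm and 1 in hPSC, a ratio of 30.5 with a 95% interval of 5.1 to 1240 that covers counting error only. In ectoderm, where TUBB3 was lowest, SYT1, a synaptic vesicle protein, had 161 and 118 reads against 7 and 8 in hPSC, while GAP43, a protein of growing axons, differed by -2.74 ± 0.59 (adjusted p = 0.00176) and NEFL by -2.71 ± 0.39 (adjusted p = 7.49e-05). The part of neurons in the TUBB3 values was not tested.

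TUBB2A and TUBB2B, the closest pair of the set, were both low in ectoderm and mesoderm but took different levels elsewhere. TUBB2A was at 924 and 815 CPM in endoderm, 358 and 454 in hPSC, 69.7 and 137 in mesoderm and 51.7 and 26.9 in ectoderm, with no overlap between groups. It rose in endoderm by 1.41 ± 0.37 (adjusted p = 0.0103) and fell in mesoderm, at -2.24 ± 0.40 (adjusted p = 0.000533), and in ectoderm, at -3.80 ± 0.42 (adjusted p = 8.60e-06). The endoderm call was lost without endoderm repeat 1 (adjusted p = 0.0558).

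For TUBB2B endoderm and hPSC lay close, at 589 and 573 CPM against 535 and 544 CPM, and differed by 0.43 ± 0.30 (adjusted p = 0.306). Ectoderm followed at 156 and 105.5 CPM and mesoderm at 58.4 and 49.6 CPM. TUBB2B fell in mesoderm, at -3.56 ± 0.35 (adjusted p = 2.19e-06), and in ectoderm, at -2.48 ± 0.31 (adjusted p = 3.04e-05). It was thus lowest in mesoderm, while TUBB2A was lowest in ectoderm: between ectoderm and mesoderm the difference was 1.08 ± 0.34 for TUBB2B (adjusted p = 0.0218) and -1.56 ± 0.42 for TUBB2A (adjusted p = 0.00911). Without mesoderm repeat 2 neither of these was called (adjusted p = 0.117 and 0.188), nor was TUBB2B without ectoderm repeat 1 or mesoderm repeat 1 (adjusted p = 0.131 and 0.0733) or TUBB2A without ectoderm repeat 2 (adjusted p = 0.135).

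TUBB4A, a brain isotype, was the rarest. Its reads numbered 31 and 29 in hPSC, 15 and 10 in ectoderm, 1 and 0 in mesoderm, and 0 in both endoderm libraries. In endoderm the level was at least 10.9-fold lower than in hPSC, against the level of 3 reads per library, and edgeR called it (adjusted p = 5.70e-05). In mesoderm the ratio of hPSC to mesoderm was 57.4 with a 95% interval of 9.92 to 2310 for counting error (adjusted p = 3.16e-05). Ectoderm was lower at -2.66 ± 0.40 (adjusted p = 0.000128). TUBB4A was the only one of the 10 genes with a higher CPM in ectoderm than in endoderm.

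TUBB4B and TUBB6 were both highest in endoderm and lowest in ectoderm. TUBB4B, the beta isotype of cilia that is also made by many other cells, was at 425 and 363 CPM in endoderm, 150.2 and 197 in hPSC, 137 and 183 in mesoderm, and 82.1 and 61.0 in ectoderm. TUBB6, a broadly made and more divergent beta isotype, was at 511 and 375 CPM in endoderm, 233 and 244 in mesoderm, 185 and 203 in hPSC and 88.9 and 51.7 in ectoderm. For TUBB4B the hPSC and mesoderm libraries overlapped, and for TUBB6 they did not. In endoderm TUBB4B rose by 1.49 ± 0.33 (adjusted p = 0.00338) and TUBB6 by 1.51 ± 0.33 (adjusted p = 0.00325). In ectoderm TUBB4B fell, at -1.72 ± 0.34 (adjusted p = 0.000790), and TUBB6 fell, at -1.89 ± 0.34 (adjusted p = 0.000445). The ectoderm call of TUBB4B was lost once the trend on length was removed (-0.72, adjusted p = 0.0903). In mesoderm TUBB4B differed from hPSC by -0.38 ± 0.33 (adjusted p = 0.390), which became 0.02 without the trend on length, and TUBB6 by 0.05 ± 0.33 (adjusted p = 0.922).

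**Figure D2:**
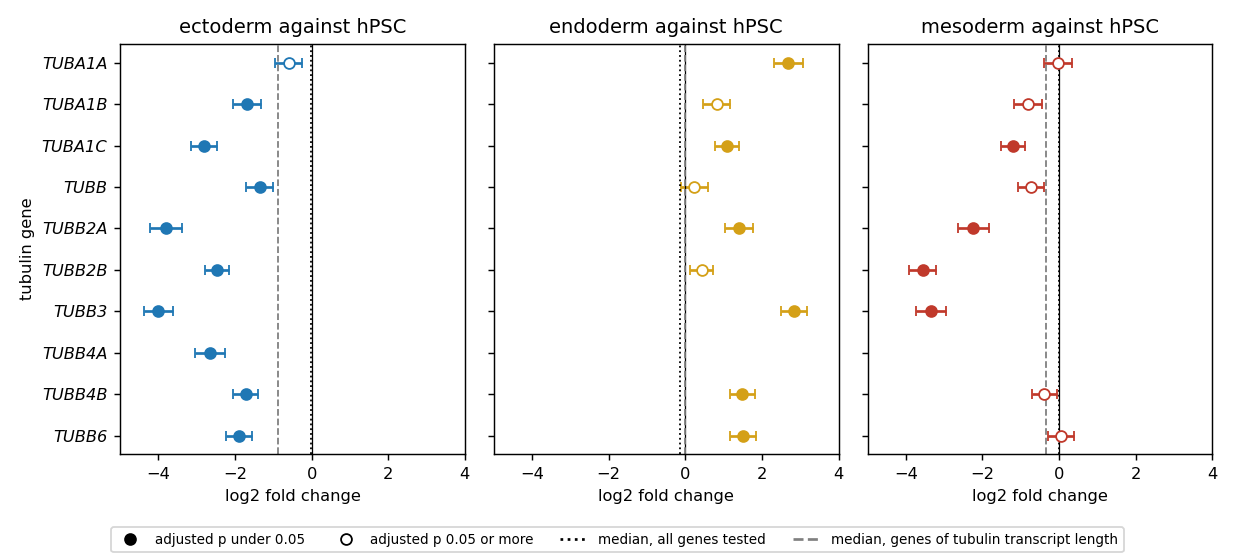
Log2 fold change of each tubulin gene in ectoderm, endoderm and mesoderm against hPSC, with bars of 1 standard error; filled points have an adjusted p under 0.05, and TUBB4A in endoderm and mesoderm is left out because those groups held 0 and 1 reads. The dashed line, the median of genes with transcripts as long as the tubulins, stands at -0.88 in ectoderm, -0.01 in endoderm and -0.33 in mesoderm.

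Counted together, 9 of the 10 genes were lower in ectoderm than in hPSC, and TUBA1A was not called. Of all 10847 genes tested, 24.8% were lower there and 48.6% changed either way, and of the 2418 genes with transcripts of 1586 to 2824 nt 44.7% were lower. Those bounds are the lengths per read of the shortest and longest tubulin. The median log2 fold change was -2.18 over the 10 genes, -0.88 over genes of that length and -0.01 over all. Once a trend on transcript length was removed, 7 of the 10 were lower, against 19.4% of all genes.

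Of all genes, 27.2% were called in endoderm and 35.1% in mesoderm, in either direction. In endoderm 6 tubulin genes were higher (TUBA1A, TUBA1C, TUBB2A, TUBB3, TUBB4B and TUBB6), 1 was lower (TUBB4A) and 3 were not called (TUBA1B, TUBB and TUBB2B). Higher calls made up 13.4% of all genes and 17.2% of those of tubulin length, and lower calls 13.7% of all genes. The median was 1.25 over the 10 genes, -0.01 over genes of that length and -0.13 over all. Removing the trend on length left 7 calls, and 14.4% of all genes were then higher and 12.9% lower.

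In mesoderm 5 genes were lower (TUBA1C, TUBB2A, TUBB2B, TUBB3 and TUBB4A), none was higher and 5 were not called. Lower calls made up 18.2% of all genes and 24% of those of tubulin length. The median was -1.0 over the 10 genes, -0.33 over genes of that length and 0.01 over all. With hPSC repeat 1 left out, 8 genes were lower, TUBA1B, TUBB and TUBB4B being added (adjusted p = 0.000509, 0.000839 and 0.0460). That repeat had less tubulin message than the other hPSC library, 0.715% against 0.933% of reads.

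The scale of the comparison moved all genes together. With library totals in place of TMM factors, the median over all genes shifted to 0.43 in ectoderm, -0.48 in endoderm and 0.25 in mesoderm, and the share of calls that were higher went from 49% to 68.2%, from 49.5% to 31% and from 48.1% to 59.9%. The numbers of tubulin genes called against hPSC were 9, 7 and 5 on that scale too.

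Endoderm stood furthest from the other layers. Between ectoderm and endoderm all 10 genes were called, 9 of them lower in ectoderm, where 63.1% of all genes were called, 29.9% lower and 33.1% higher. The median was -3.25 over the 10 genes, -0.82 over genes of tubulin length and 0.19 over all. TUBB3 differed by -6.84 ± 0.41 (adjusted p = 2.65e-08), TUBB2A by -5.20 ± 0.44 (adjusted p = 3.28e-07) and TUBA1C by -3.92 ± 0.35 (adjusted p = 5.63e-07). Removing the trend on length made these differences smaller, at -5.85 ± 0.39, -4.15 ± 0.40 and -3.71 ± 0.36. Between endoderm and mesoderm 9 genes were higher in endoderm, against 23.2% of all genes, with 47.1% called either way. The median was 2.09 over the 10 genes, 0.31 over genes of tubulin length and -0.16 over all. TUBB3 was again at the far end, at 6.17 ± 0.41 (adjusted p = 8.51e-08), followed by TUBB2B at 3.99 ± 0.35 (adjusted p = 7.73e-07). With the trend on length removed, TUBB3 was at 5.79 ± 0.40 and TUBB2B at 3.68 ± 0.33. TUBB, the smallest of the 9 at 0.96 ± 0.35 (adjusted p = 0.0328), was not called on the scale of library totals (0.35, adjusted p = 0.236) or without any 1 of the 4 libraries of these layers (adjusted p from 0.0526 to 0.136).

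Ectoderm and mesoderm differed in 6 genes, against 35.4% of all genes, 17.2% lower in ectoderm and 18.2% higher. TUBA1C, TUBB2A, TUBB4B and TUBB6 were lower in ectoderm, and TUBB2B and TUBB4A were higher there. Among the 5 of these genes with reads in every library of both layers, the largest difference was that of TUBB6, at -1.94 ± 0.34 (adjusted p = 0.000463). TUBB4A was not called by DESeq2 (adjusted p = 0.129). Only 2 of the 6, TUBA1C and TUBB6, were still called without mesoderm repeat 2, and with the trend on length removed 4 were, against 15.6% of all genes lower and 15% higher.

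The isotype mix, the share of each gene in the reads of its own family, also differed between the groups. This measure does not depend on the scale between libraries. It can still depend on transcript length, since the mean length per read differed between the groups. Isotypes differ in length too, with 2519 nt for the main transcript of TUBB and 1709 nt for that of TUBB3. Shares divided by length, given below, use the same transcript lengths in every library and do not remove such a difference. The 4 groups were compared by F, with a one-sided exact permutation test over every way to split 8 libraries into 4 pairs, and the smallest p this allows is 0.00952. The 10 shares sum to 100% within each family, so the tests are not independent of each other, and their p-values are not adjusted.

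**Figure D3:**
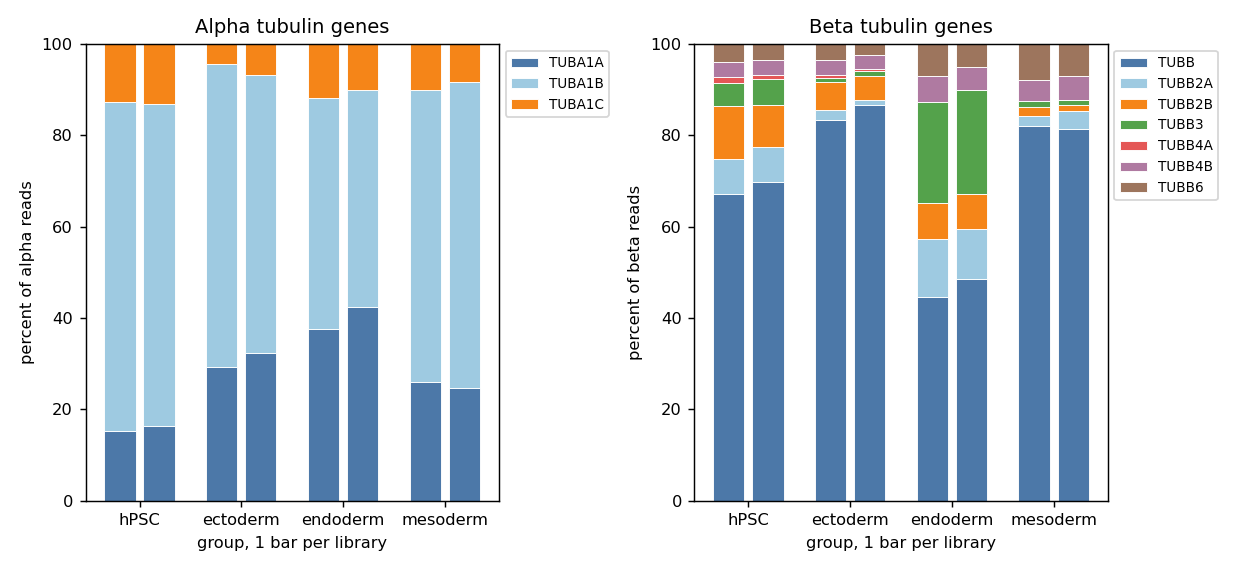
Share of each isotype among the reads of the 3 alpha genes (left) and of the 7 beta genes (right), in percent, with 1 bar per library. TUBB took 83.4% and 86.6% of beta reads in ectoderm and 44.7% and 48.5% in endoderm, where TUBB3 took 22% and 22.8%.

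In the alpha family the share of TUBA1A was 15.8% ± 0.766 (SD, n = 2) in hPSC, 25.3% ± 0.875 in mesoderm, 30.9% ± 2.19 in ectoderm and 39.9% ± 3.39 in endoderm. All 3 layers thus lay above hPSC, although the TUBA1A level itself was called in endoderm only. The exact permutation p was 0.00952, the smallest the design allows. The share of TUBA1B moved the other way, from 71.4% ± 1.09 in hPSC to 65.5% ± 2.06 in mesoderm, 63.6% ± 3.88 in ectoderm and 49.1% ± 2.13 in endoderm (exact permutation p = 0.0190). TUBA1C took 12.9% ± 0.328 in hPSC, 10.9% ± 1.26 in endoderm, 9.17% ± 1.19 in mesoderm and 5.51% ± 1.69 in ectoderm (exact permutation p = 0.00952). Divided by transcript length, TUBA1B was still the largest share in each group, from 52.1% in endoderm to 75.6% in hPSC.

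In the beta family TUBB dominated every group, with 85% ± 2.24 for ectoderm and 81.7% ± 0.445 for mesoderm, 68.5% ± 1.88 for hPSC and the lowest share, 46.6% ± 2.73, for endoderm (exact permutation p = 0.00952). Per length these shares were 80.1%, 75.3%, 60.4% and 37.4%. TUBB3 was second in endoderm, with 22.4% ± 0.537 of beta reads, and took 5.37% ± 0.419 in hPSC and 1.07% ± 0.171 and 1.06% ± 0.200 in ectoderm and mesoderm (exact permutation p = 0.0286). TUBB2B was second in hPSC with 10.4% ± 1.65 and in ectoderm with 5.65% ± 0.832, and took 7.88% ± 0.200 in endoderm and 1.70% ± 0.372 in mesoderm (exact permutation p = 0.00952). TUBB6 was second in mesoderm with 7.46% ± 0.554, against 6.01% ± 1.33 in endoderm, 3.71% ± 0.393 in hPSC and 3.02% ± 0.763 in ectoderm (exact permutation p = 0.0190). Per length these genes held the same places, with 26.2% for TUBB3 in endoderm, 11.9% and 6.95% for TUBB2B in hPSC and ectoderm, and 9.37% for TUBB6 in mesoderm.

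The range of the group means was 10.1 percentage points for TUBB2A, 8.69 for TUBB2B and 4.44 for TUBB6. TUBB2A took 11.8% ± 1.11 in endoderm, 7.71% ± 0.0353 in hPSC, 3.15% ± 1.15 in mesoderm and 1.68% ± 0.550 in ectoderm (exact permutation p = 0.00952). TUBB4B ranged from 3.11% ± 0.255 in ectoderm to 5.34% ± 0.625 in endoderm (exact permutation p = 0.0476), and with length taken into account its p was 0.0571. TUBB4A was at 1.08% ± 0.293 in hPSC and 0.502% ± 0.00875 in ectoderm, with 0 and 1 reads in the other groups (exact permutation p = 0.0286). Reads of alpha genes per read of beta genes ranged from 0.543 in hPSC repeat 1 to 0.910 in endoderm repeat 2. Leaving out 1 library at a time, from 7 to 10 of the 10 shares kept a p under 0.05, and those that lost it were TUBA1B, TUBA1C, TUBB4A, TUBB4B and TUBB6. As shares of the reads of all 10 genes, 8 kept it. There the range of the TUBA1B means was 4.41 points, with mesoderm highest and endoderm lowest (exact permutation p = 0.333), and TUBB4B had an exact permutation p of 0.0667. Shares within other gene families are not given here, so these counts of shares have no background to be read against.

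Within the TUBB2 pair the balance differed by group, a feature chosen after its values were seen and given without a test. TUBB2A made up 24.9% and 20.3% of the pair's reads in ectoderm, 40.1% and 45.5% in hPSC, 61.1% and 58.7% in endoderm, and 54.4% and 73.4% in mesoderm. The mesoderm libraries rest on 68 and 94 reads, and their 95% Wilson intervals run from 42.7% to 65.7% and from 63.7% to 81.3%. Intervals cover counting error only. Ectoderm lay below hPSC and hPSC below endoderm in both libraries, while the mesoderm libraries lay on either side of endoderm.

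**Figure D4:**
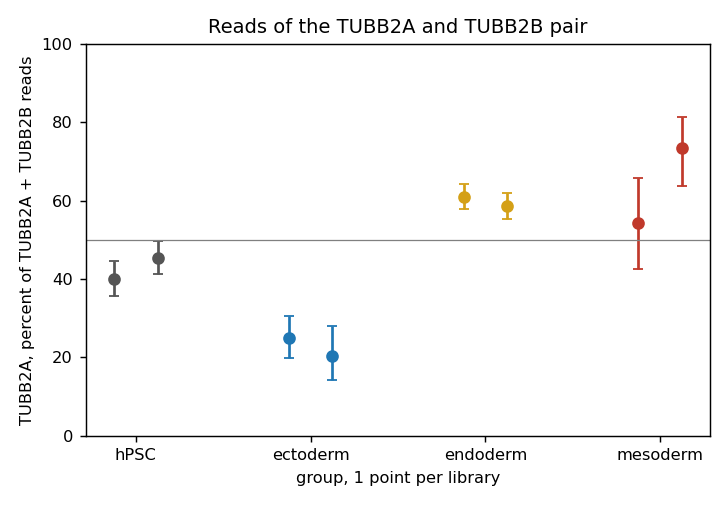
TUBB2A as a percent of the reads of TUBB2A and TUBB2B together, with 1 point per library and its 95% Wilson interval. Ectoderm lies at 24.9% and 20.3% and endoderm at 61.1% and 58.7%, with hPSC between them.

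The 250 bases before the start sites of this pair and of TUBB3, from RefSeq on GRCh38.p14, are shown because these genes had unlike levels across the layers while 2 of them have almost the same coding region. Capitals mark 3 motifs on either strand, so that the reverse complement of each is in capitals too. The first is CCAAT. Another, found near some start sites, is TATAAA. The last is GGGCGG, to which Sp1 binds. The motifs do not overlap here. TUBB2A lies at chr6:3157545-3157794 on the minus strand, TUBB2B at chr6:3227654-3227903 on the minus strand, and TUBB3 at chr16:89923092-89923341 on the plus strand.
TUBB2A: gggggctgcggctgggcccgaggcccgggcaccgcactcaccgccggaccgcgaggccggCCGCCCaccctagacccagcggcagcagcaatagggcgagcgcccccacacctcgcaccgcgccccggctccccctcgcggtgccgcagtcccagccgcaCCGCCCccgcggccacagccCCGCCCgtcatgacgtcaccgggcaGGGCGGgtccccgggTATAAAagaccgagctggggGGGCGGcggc
TUBB2B: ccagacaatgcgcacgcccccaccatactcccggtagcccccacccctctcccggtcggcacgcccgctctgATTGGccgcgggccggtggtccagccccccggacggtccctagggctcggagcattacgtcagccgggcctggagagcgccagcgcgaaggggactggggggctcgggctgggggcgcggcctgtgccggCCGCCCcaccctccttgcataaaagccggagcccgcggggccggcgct
TUBB3: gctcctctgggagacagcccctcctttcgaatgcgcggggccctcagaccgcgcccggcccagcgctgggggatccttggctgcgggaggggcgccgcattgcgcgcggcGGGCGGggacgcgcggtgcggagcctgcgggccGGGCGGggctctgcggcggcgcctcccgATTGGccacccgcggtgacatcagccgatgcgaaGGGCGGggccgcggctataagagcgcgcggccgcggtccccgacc

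Where the coding regions of TUBB2A and TUBB2B are 98.1% identical, their promoters share 140 of 217 aligned bases (64.5%). The TUBB2A window holds GGGCGG 5 times and TATAAA 1 time, the TUBB2B window CCAAT 1 time and GGGCGG 1 time, and the TUBB3 window GGGCGG 3 times and CCAAT 1 time. Over 34943 RefSeq promoters of the same length, CCAAT is in 32% of windows, TATAAA in 10.8% and GGGCGG in 42.5%. A match describes these letters only and was not tied to any level here.

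Each gene was read almost wholly from 1 transcript. TUBA1A, TUBA1C, TUBB2A, TUBB2B and TUBB4A had 1 transcript, which took all reads. In the other 5 genes the main transcript took from 78.8% to 97.7% of reads in a group. TUBB3 was the low end: its main transcript took 95.6% of 1936 reads in endoderm (95% Wilson interval 94.6% to 96.4%), 92.6% of 310 in hPSC (89.1% to 95%), 94.3% of 35 in mesoderm (81.4% to 98.4%) and 78.8% of 52 in ectoderm (66.0% to 87.8%). The rest came from a transcript that starts inside the gene at chr16:89930728 and from one that starts upstream at chr16:89921846. In ectoderm they had 7 and 4 reads.

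Transcript use within a gene was tested with edgeR's diffSpliceDGE where at least 2 transcripts passed the filter, which held for TUBA1B, TUBB and TUBB3. None of the 3 was called in any layer against hPSC, where of 2629 genes 5.63% were called for ectoderm, 7% for mesoderm and 5.06% for endoderm. The smallest p was that of TUBB3 in ectoderm, 0.0475 before adjustment and 0.275 after it, and it was the only one of the 9 tests with an unadjusted p under 0.05. The depth of 52 and 35 reads limits what could be seen for TUBB3 in ectoderm and mesoderm.

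The genes that act on tubulin and microtubules were followed as fixed lists against hPSC, in which higher calls made up 23.8%, 13.4% and 16.9% of all genes for ectoderm, endoderm and mesoderm, and lower calls 24.8%, 13.7% and 18.2%. With the trend on length removed, 16.4% of all genes were higher and 19.4% lower for ectoderm, 14.4% and 12.9% for endoderm, and 14.7% and 16.9% for mesoderm. Counts are read against the length of the transcripts as well, since the lists differ in it.

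**Figure D5:**
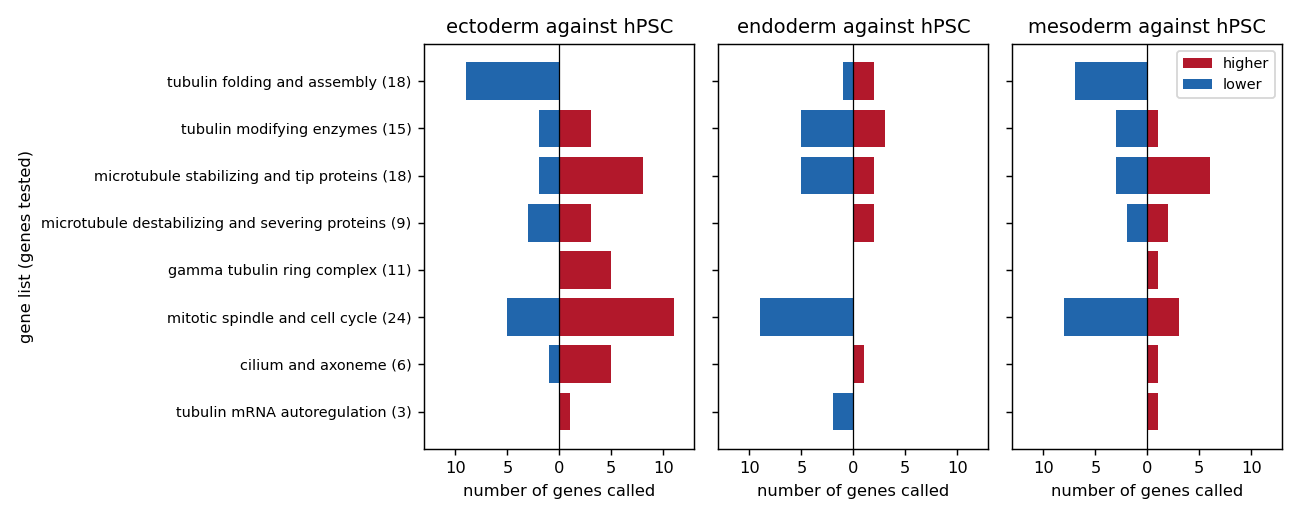
Number of genes called higher (right of 0) and lower (left of 0) in ectoderm, endoderm and mesoderm against hPSC for 8 lists of genes that act on tubulin or microtubules, with the genes tested in parentheses. In ectoderm 9 of 18 folding genes were lower, and in endoderm 9 of 24 mitotic genes were lower.

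The folding list holds the CCT chaperonin, prefoldin and the tubulin cofactors, which fold new tubulin and assemble the dimer. Of 18 genes tested, 9 fell in ectoderm, 7 in mesoderm and 1 in endoderm, and 2 rose, both in endoderm. The median was -0.94 in ectoderm, -0.85 in mesoderm and -0.17 in endoderm. This list has a median transcript length of 1888 nt, and genes of tubulin length were lower in 44.7% of cases in ectoderm, with a median of -0.88, and in 24% in mesoderm, with a median of -0.33. CCT7 fell in ectoderm, at -2.27 ± 0.39 (adjusted p = 0.000302), and CCT5 in mesoderm, at -1.66 ± 0.34 (adjusted p = 0.00150). ARL2, a small GTPase that works with the cofactors, fell in mesoderm at -2.25 ± 0.32 (adjusted p = 8.53e-05). In endoderm TBCA and TBCB, a beta and an alpha tubulin cofactor, rose by 1.20 ± 0.37 and 1.31 ± 0.33 (adjusted p = 0.0261 and 0.00872), and CCT8 fell, at -1.16 ± 0.35 (adjusted p = 0.0226). With the trend on length removed, the ectoderm count was 4 lower and 2 higher, the endoderm count 3 lower and 2 higher, and the mesoderm count 7 lower.

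The autoregulation list had 3 genes that passed the filter: TTC5, SCAPER and CNOT11, which together start the decay of tubulin messages. TTC5 fell in endoderm, at -1.87 ± 0.51 (adjusted p = 0.0128), with 7 and 14 reads against 25 and 63 in hPSC. CNOT11, part of the deadenylase that TTC5 calls in, was at 4 and 0 reads in endoderm and at 65 and 5 in hPSC, and was called lower (-3.81 ± 0.997, adjusted p = 0.0104) although the hPSC libraries lie far apart. SCAPER, which links TTC5 to the deadenylase, rose in ectoderm by 2.12 ± 0.51 (adjusted p = 0.00348) and in mesoderm by 1.76 ± 0.58 (adjusted p = 0.0269). Summed, the 3 genes were at 18.8 and 27.3 CPM in endoderm and between 126 and 183 CPM in the other 6 libraries. A link between this sum and the tubulin levels was not tested. The transcripts of the 3 genes have a median length of 4747 nt. With the trend on length removed, SCAPER was not called in mesoderm (adjusted p = 0.0550), and the counts were 1 higher and 1 lower in ectoderm, 2 lower in endoderm and 1 lower in mesoderm.

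Among 15 enzymes that modify tubulin, VASH2, which with a partner removes the last tyrosine of alpha tubulin, fell in every layer. It had 160 reads in the hPSC libraries together and 20 and 13 in those of ectoderm, and in endoderm and mesoderm alike 1 library had 1 read and the other none. In ectoderm the difference was -3.66 ± 0.39 (adjusted p = 6.97e-06), and the ratio of hPSC to layer was 173 in endoderm (30.7 to 6890) and 153 in mesoderm (27.1 to 6090). HDAC6 and SIRT2, tubulin deacetylases, rose in endoderm by 2.26 ± 0.34 and 1.68 ± 0.34 (adjusted p = 0.000216 and 0.00209). SIRT2 fell in ectoderm, at -1.35 ± 0.38 (adjusted p = 0.00803), and rose in mesoderm by 1.29 ± 0.34 (adjusted p = 0.00853). In all, 3 rose and 2 fell in ectoderm, 3 rose and 5 fell in endoderm, and 1 rose and 3 fell in mesoderm. Removing the trend on length turned the balance in ectoderm to 1 higher and 3 lower, SIRT2 no longer being called there (adjusted p = 0.232), and the counts were 3 higher and 4 lower in endoderm and 2 higher and 4 lower in mesoderm.

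Of 18 proteins that stabilize microtubules or ride on their tips, 8 were higher and 2 lower in ectoderm. MAP2, the dendrite protein, had 213 and 172 reads in ectoderm and 1 and 2 in hPSC, a ratio of 64.6 (95% interval 21.9 to 315). CAMSAP2, which holds the minus ends, had 85 reads in ectoderm and 2 in hPSC, a ratio of 21.4 (5.74 to 180.0). In mesoderm 6 were higher and 3 lower, and in endoderm 2 were higher, MAP1B by 1.32 ± 0.35 (adjusted p = 0.0110) and MAP4 by 0.91 ± 0.30 (adjusted p = 0.0372), and 5 lower. This list has a median transcript length of 6088 nt, and with the trend on length removed 7 rose and 3 fell in ectoderm, 2 rose and 4 fell in endoderm, and 4 rose and 3 fell in mesoderm.

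Of 9 genes that take microtubules apart, 3 rose and 3 fell in ectoderm and 2 rose and 2 fell in mesoderm. In endoderm 2 rose, both stathmins, which bind free tubulin dimers, and none fell. STMN3 had 179 and 208 reads there against 41 and 24 in hPSC and rose by 2.81 ± 0.35 (adjusted p = 3.35e-05), and STMN2 is given above. In ectoderm STMN3 fell, at -1.87 ± 0.38 (adjusted p = 0.00108), while the severing enzymes SPAST and FIGN rose by 3.14 ± 0.50 and 2.33 ± 0.52 (adjusted p = 0.000172 and 0.00212). SPAST and FIGN rose in mesoderm as well, by 2.08 ± 0.59 and 2.03 ± 0.58 (adjusted p = 0.0133 and 0.0136). Once the trend on length was removed, FIGN was not called in ectoderm (adjusted p = 0.0693), and 2 rose and 1 fell in ectoderm, 2 rose in endoderm, and 2 rose and 1 fell in mesoderm.

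Genes of nucleation and division were called in both directions. Of 11 genes of the gamma tubulin ring complex, which starts new microtubules, 5 rose in ectoderm, 1 in mesoderm and none in endoderm, and NEDD1 rose in ectoderm by 3.31 ± 0.46 (adjusted p = 5.81e-05). Without the trend on length, 6 rose and 1 fell in ectoderm, none was called in endoderm and 1 rose in mesoderm. Of 24 genes of the spindle and cell cycle, 11 rose and 5 fell in ectoderm, 9 fell and none rose in endoderm, and 3 rose and 8 fell in mesoderm. KIF11, the kinesin that pushes spindle poles apart, was at 131 and 106 reads in ectoderm against 7 and 4 in hPSC (3.0 ± 0.41, adjusted p = 5.32e-05). TOP2A rose in ectoderm too, by 3.57 ± 0.31 (adjusted p = 8.77e-07). CDC20 and CCNB1 fell there, at -1.80 ± 0.38 and -1.22 ± 0.37 (adjusted p = 0.00125 and 0.0133). CCNA2, a cyclin, fell in endoderm at -3.11 ± 0.39 (adjusted p = 3.93e-05). Summed, the division genes were at 6421 and 6707 CPM in ectoderm, 4105 and 4928 in hPSC, 3282 and 2945 in mesoderm and 2157 and 2175 in endoderm. Divided by the TMM factors, a scale chosen for these sums after their values were seen, they were at 4981 and 5143 in ectoderm, 3889 and 5906 in hPSC, 2952 and 2619 in mesoderm and 2842 and 3056 in endoderm, so that ectoderm overlapped with hPSC and endoderm with mesoderm. With the trend on length removed, 10 rose and none fell in ectoderm, 9 fell in endoderm, and 2 rose and 7 fell in mesoderm.

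Of 6 cilium genes tested, 5 rose and CFAP20 fell in ectoderm, where TUBB4B fell as well. IFT81, a carrier of tubulin within cilia, rose there by 3.33 ± 0.57 (adjusted p = 0.000287), from 3 and 1 reads to 67 and 45. BBS1, part of the ciliary cargo coat, was the gene that rose in endoderm and in mesoderm, by 1.77 ± 0.43 and 1.65 ± 0.42 (adjusted p = 0.00628 and 0.00682). After removal of the trend on length 3 rose in ectoderm and CFAP20 was not called (adjusted p = 0.683), and 1 rose in endoderm and in mesoderm.

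Among other tubulin genes, 4 of 14 listed were tested. TUBA4A, an alpha isotype of platelets and adult brain, fell in all layers, with 33 and 53 reads in hPSC against 0 and 4 for ectoderm, 7 and 2 for endoderm and 0 and 4 for mesoderm, at -5.69 ± 0.70, -3.03 ± 0.65 and -4.54 ± 0.75 (adjusted p = 2.44e-05, 0.00306 and 0.000298). TUBG1, the gamma tubulin of the ring complex, fell in ectoderm and mesoderm, at -2.20 ± 0.42 and -2.17 ± 0.43 (adjusted p = 0.000614 and 0.00127). Without the trend on length, 1 of the 4 rose and 2 fell in ectoderm, 1 fell in endoderm, and 1 rose and 2 fell in mesoderm.

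The tubulin genes were compared with each other and with the 8006 genes of at least 20 CPM by Pearson's r of log2 CPM over the 8 libraries, which form 4 groups and share their depth and the mean length of their reads, and r is given as a description. Among the 10, TUBA1B, TUBA1C, TUBB, TUBB2A and TUBB4B had r from 0.928 to 0.983 with each other. TUBB4A stood apart, with r from -0.532 with TUBA1A to 0.275 with TUBB2B. TUBB2B was nearest to TUBB3, at 0.909, and less near to its close copy TUBB2A, at 0.860.

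The gene most like TUBB3 was PSMA6, a proteasome subunit, at 0.999, with 121 and 115 reads in endoderm, 62 and 67 in hPSC, 72 and 65 in ectoderm and 34 and 32 in mesoderm. The next was BAK1, at 0.994. TUBB4A was most like VASH2, at 0.985, then DPH5, at 0.978. TUBB2A was most like ATP5MC3, STX4 and ATP5F1B (0.996, 0.996 and 0.993), and TUBB2B was close to FDXR and IFITM1 (0.990 and 0.989). TUBA1A was nearest to CES2 and SLC26A11 (0.989 and 0.989), TUBA1B to DDX39B, BRMS1 and PSMD13 (0.997, 0.993 and 0.993), and TUBA1C to RAB34, ABCF3 and EIF2B4 (0.996, 0.995 and 0.994). TUBB was nearest to IDH3G, ALDOA and DHDDS (0.998, 0.994 and 0.993), TUBB4B to DCAF4, CHMP1A and HMOX2 (0.992, 0.992 and 0.989), and TUBB6 to GDE1, RBM3 and CD151 (0.993, 0.993 and 0.992). Genes this near to a tubulin were picked as the highest of 8006 values.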

How the data were processed

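Long reads of polyadenylated RNA from H1 cells came from a PacBio Sequel II, per the labels, as 8 libraries of 4 groups with 2 repeats each. The authors deposited whole raw counts of reads per assembled transcript, with no normalization. The endoderm columns were recorded under expected counts, but the deposited values there are whole raw counts too and nothing was rounded. minimap2, StringTie and GRCh38 are named in the submitters' processing notes, without versions. The counter, its use of strand and its handling of reads that fit several copies are not given in the sources used here. The deposited CPM tables were not used.

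Each gene's count is the sum of its transcripts that carry a gene name in the assembly. Another 11590 of 96614 transcripts were kept as loci of their own, 2 of them (16 reads) listed under TUBB6. Library totals ranged from 503840 to 1180888 reads, and a count of 0 allows up to 3 counts, from 2.54 to 5.95 CPM. The fit of all genes used edgeR 4.0.16 (R 4.3.3), with TMM factors, filterByExpr at a minimum count of 10, 1 quasi-likelihood fit of 4 group means over the 8 libraries, and two-sided tests with Benjamini-Hochberg adjustment at 0.05 over 10847 genes. The SE is the log2 fold change divided by the square root of F. Transcript use was tested with diffSpliceDGE. Isotype shares were compared by a one-sided exact permutation test of F. Both fits and the permutation test were checked on simulated data. Intervals are 95% Wilson or exact binomial intervals and cover counting error only.

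DESeq2 1.42.0, RLE factors, library totals, no filter, a term for the repeat number, other sets of transcripts, a trend on transcript length (a loess curve per library) and leaving out each library were the alternatives. Where a group kept 1 library, it was assumed to vary like the others. The members, lists, tests and alternatives were chosen with earlier results of these data known. Named genes are the 10 tubulin genes, the 2 called genes with the largest change per list, direction and layer (the most telling of which are printed), and the 3 genes with the highest r to each tubulin, leaving out unnamed loci and genes that are not reported here. Sequences were read with Biopython 1.88 from GENCODE 29 and RefSeq.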

Additional observations from a re-analysis of the deposited data

Results flagged for a closer look

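The tubulin genes listed here changed in opposite directions in a pair of layers, each against the same hPSC libraries, and the difference between the layers was itself called by edgeR's quasi-likelihood test with Benjamini-Hochberg adjustment. Because the layers share their controls, the layer values are compared directly. TUBB3 was lower in ectoderm than in endoderm by a log2 difference of -6.84 ± 0.41 (adjusted p = 2.65e-08) and higher in endoderm than in mesoderm by 6.17 ± 0.41 (adjusted p = 8.51e-08). TUBB2A differed between ectoderm and endoderm by -5.20 ± 0.44 (adjusted p = 3.28e-07) and between endoderm and mesoderm by 3.64 ± 0.41 (adjusted p = 7.86e-06). TUBA1C differed by -3.92 ± 0.35 (adjusted p = 5.63e-07) and by 2.30 ± 0.33 (adjusted p = 6.16e-05) in the same comparisons. Between ectoderm and endoderm TUBB6 differed by -3.40 ± 0.35 (adjusted p = 1.82e-06) and TUBB4B by -3.21 ± 0.34 (adjusted p = 2.44e-06). Removing the trend on transcript length made the ectoderm and endoderm differences smaller, at -5.85 for TUBB3, -4.15 for TUBB2A and -3.71 for TUBA1C. TUBB6 was then at -2.51 and TUBB4B at -2.13. In each pair of layers listed, both libraries of one layer lay above both of the other. This adds no support, because the genes were picked by these calls. How many of all genes meet the same rule is not given here. With 2 libraries a group, no single library was tested for standing apart.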

How the results depend on the processing

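Depth limits TUBB4A and, in ectoderm and mesoderm, TUBB3, TUBB2A and TUBB2B, whose counts there run from 0 to 184. DESeq2 called fewer genes in all, 3356, 1836 and 2315 in ectoderm, endoderm and mesoderm against hPSC in place of 5274, 2946 and 3810, and 2015 between ectoderm and mesoderm in place of 3839; the cause was not tested. Leaving out 1 library gave from 3293 to 5960, from 1455 to 4067 and from 2012 to 5084 calls against hPSC, from 5331 to 8205 between ectoderm and endoderm (6841 with all), from 1780 to 5631 between ectoderm and mesoderm and from 3390 to 6487 between endoderm and mesoderm (5107 with all), with fewer samples behind each fit. The tubulin counts then ranged from 8 to 10 in ectoderm, 6 to 8 in endoderm and 4 to 8 in mesoderm against hPSC, stayed at 10 between ectoderm and endoderm, and ranged from 2 to 9 between ectoderm and mesoderm and from 8 to 9 between endoderm and mesoderm. Under the other alternatives all 48 tubulin counts were within 1.5 times of the values reported.

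Genes with changed transcript use numbered 148, 133 and 184 in ectoderm, endoderm and mesoderm, against 70, 56 and 78 with a Simes combination and 93, 74 and 117 with reference transcripts only, where fewer genes were tested. Leaving out 1 library gave from 12 to 307, from 24 to 211 and from 37 to 312. No tubulin gene was called under any of these.

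Some differences that were not called changed sign. TUBA1A in mesoderm against hPSC was -0.03 as reported, 1.886e-05 with DESeq2, 0.0001783 with RLE factors, 0.2638 with library totals, 0.01305 without a filter, 0.07294 with reference transcripts only, 0.3279 with the trend on length removed, and from -0.4027 to 0.4603 without 1 library. TUBB in endoderm against hPSC was -0.08908 with library totals and from -0.07162 (without hPSC repeat 1) to 0.6465 without 1 library. Removing the trend on length gave 0.3741 for TUBA1A in ectoderm against hPSC, 0.04619 for TUBA1A between ectoderm and mesoderm and 0.02226 for TUBB4B in mesoderm against hPSC. Without 1 library TUBB6 in mesoderm ranged from -0.1651 (without hPSC repeat 1) to 0.287, and TUBB4B in mesoderm from -0.7061 to 0.007301 (without hPSC repeat 2).

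The repeat numbers are not said to mark a shared culture or day, and the main fit did not pair the samples by them. Deviations of same-numbered libraries correlated between -0.0341 and 0.15 over 10847 genes, the highest value being that of hPSC with endoderm. Such values cannot tell whether libraries shared a culture or day. With the repeat number as a block the counts of tubulin genes did not move past 1.5 times, TUBA1A in mesoderm stood at 0.001356, and transcript use in ectoderm was called in 98 genes.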
